A study of Mus musculus with 20 samples.

Results

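Kidney RNA was compared between EIC + S60 mice, which received immune complexes together with the lower dose of sparsentan, and Control mice, which received neither. The comparison takes all 5 EIC + S60 libraries (mice 71 to 75) and all 5 Control libraries (mice 651 to 655), 10 of the 20 libraries of the series, and genes that reached 10 counts or more in 5 or more of these 10. EIC are engineered immune complexes of human galactose-deficient IgA1 and a recombinant human IgG against it, made as a model of IgA nephropathy. Sparsentan blocks the endothelin type A receptor and the angiotensin II type 1 receptor. EIC + S60 mice were injected with EIC 6 times, each dose holding 0.2 mg IgA1 and 0.1 mg IgG, and were gavaged with sparsentan at 60 mg/kg on each of 11 days. Control mice were injected with PBS in place of EIC and were gavaged with vehicle over the same days. All were female NCr nude mice bought at 7 wk of age, which lack a thymus and hence most T cells, and kidneys were taken for RNA on day 12. EIC and sparsentan differ together in this comparison, so within it their parts in a change cannot be told apart. No group was given sparsentan without EIC, so the effect of the drug alone cannot be read. The other groups of the series, EIC (complexes and vehicle) and EIC + S120 (complexes and sparsentan at 120 mg/kg), are used only to set their values beside those of EIC + S60.

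Juxtaglomerular cells of the afferent arteriole release renin, the protease that starts the cascade to angiotensin II. Angiotensin II acts back on these cells through its type 1 receptor to restrain renin, so that renin expression is known to climb when the receptor is blocked. The circadian clock of each cell is a loop in which BMAL1 (gene Arntl) with CLOCK or NPAS2 switches on the Per and Cry repressors and a set of output factors, and the kidney is one of the organs in which many transporters and enzymes follow it.

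Total counts per library ranged over 15220943 to 27948916 in EIC + S60 (median 18025326) and 12662345 to 38651781 in Control (median 14388553), and 13619 of the 15780 listed genes passed the count filter. The tissue label fitted its markers: those of the proximal tubule summed to between 26708 and 32412 CPM (counts scaled to library size after TMM) in EIC + S60 and between 20526 and 29126 CPM in Control. Of 13 markers of T and NK cells, 7 were among the listed genes, and Cd3e, Cd3d, Cd3g, Trac, Trbc2 and Nkg7 were not. Those 7 summed to 2.24 to 3.90 CPM in EIC + S60 and 1.59 to 2.07 CPM in Control, which does not measure T cells. A few libraries stood apart. For mitochondrial and urothelial genes, and for the counts of 31 and 199 genes below, CPM were scaled to total counts without TMM. EIC + S60 75 and Control 651 had 18.6 and 21.0 CPM over 6 mitochondrially encoded genes, against 2277 to 3492 CPM in the other 18 libraries of the series, and 31 genes in all lay under 0.5 times the lowest other library in both. None of these 31 is named below. Mouse 65 of the EIC group had 0 of the 15780 listed genes at 0 counts, against 234 to 654 in every other library of the series. It is not among the 10 libraries compared but enters the values for EIC, and the cause was not tested. Control 653 had 94.5 CPM over 6 genes of the urothelium, which lines the renal pelvis, against at most 26.5 CPM in the other 9 libraries. Its markers of adipocytes summed to 427 CPM, against 30.2 to 79.0 CPM in the other 9, and those of the collecting duct to 2012 CPM, against 959 to 1271 CPM. In all, 199 genes in it lay over 2 times the highest other library. The number of DE genes is therefore also given without Control 653, and some results with mice 75 and 651 left out together (4 mice against 4), a setting chosen after the data were seen.

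Renin, the clock repressors Cry1, Cry2, Per2 and Per3 and several metabolic enzymes were higher in the kidneys of EIC + S60 mice, and 4 of 17 immediate early genes, the BMP antagonist Grem1 and the glomerular basement membrane collagens Col4a3 and Col4a4 were lower. By edgeR's quasi-likelihood test, 172 of the 13619 genes were DE genes (1.26%), meaning an adjusted p under 0.05 after Benjamini-Hochberg adjustment over all genes tested. Of these, 112 were higher in EIC + S60 (0.822% of genes tested) and 60 were lower (0.441%). The changes were mostly modest. The median LFC (log2 fold change, EIC + S60 over Control) was 0.54 among the higher genes and −0.54 among the lower ones, 15 had an LFC of at least 1 and 7 an LFC of −1 or below. In 168 of the 172, all 5 EIC + S60 mice lay on one side of all 5 Control mice. Over all genes tested, 283 (2.08%) lay wholly above and 245 (1.8%) wholly below, and the median LFC was −0.01. By edgeR, 1811 of the 13619 genes had an unadjusted p under 0.05, and 46.5% had a positive LFC. DESeq2 called 435 of 13569 genes. The counts given for lists below are to be read against these numbers. RNA came from kidney tissue with its mixed cells, so fewer cells of a type and less RNA per cell cannot be told apart in any of these values. The number of DE genes was 70 without EIC + S60 73, 88 without EIC + S60 71, 87 without Control 652, 96 without Control 654 and 111 without Control 655. It was 169 without Control 653 and 155 with 4 mice against 4.

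Ren1, which encodes renin (chromosome 1, 133350510 to 133360325; GRCm38, GENCODE vM21), had the largest LFC among the higher DE genes named here. It was at 819.6, 524, 847, 448 and 769.5 CPM in EIC + S60, against 234, 142, 56.8, 165 and 98.7 CPM in Control. The lowest EIC + S60 mouse (74) stood above the highest Control mouse (651), and Control mice spread widely, with mouse 653 lowest. The rise was 4.88-fold (LFC 2.29, SE 0.37, adjusted p = 0.0248). Significance was lost without EIC + S60 71, 73 or 75 or without Control 652, 654 or 655 (highest adjusted p = 0.0675). With 4 mice against 4 the LFC was 2.51 (adjusted p = 0.041), and adjusted p was 0.103 without the 3 libraries of greatest depth. Some mouse strains carry Ren2, a near-identical copy of this gene, so reads could be shared or lost in the counting. Akr1b7, an aldo-keto reductase that mouse renin cells are known to express (chromosome 6, 34412334 to 34423142), was at 8.81, 3.29, 6.36, 3.95 and 5.19 CPM in EIC + S60, against 1.98, 2.46, 1.27, 2.20 and 1.49 CPM in Control. Here too every EIC + S60 mouse lay above every Control mouse, with EIC + S60 72 the lowest of its group (LFC 1.52, SE 0.26, adjusted p = 0.02). This call was lost without EIC + S60 73 or without Control 655 (highest adjusted p = 0.0614), and adjusted p was 0.0651 with 4 mice against 4.

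The receptors that sparsentan blocks, and the tested genes other than Ren1 that supply their ligands, did not pass. Agtr1a, the main type 1 receptor for angiotensin II in mouse kidney, averaged 51.8 ± 4.18 CPM in EIC + S60 and 51.8 ± 10.2 CPM in Control (SD, n = 5 each), and the groups overlapped (LFC −0.00, SE 0.13, adjusted p = 0.997). Ednra, the endothelin type A receptor, was at 5.27 ± 1.28 CPM in EIC + S60 and 3.61 ± 1.10 CPM in Control (LFC 0.53, SE 0.23, adjusted p = 0.334). Ednrb, the type B receptor, had an LFC of 0.31 (adjusted p = 0.216) and Edn1, which encodes endothelin-1, of 0.60 (adjusted p = 0.367). Of 6 tested endothelin genes 0 passed by edgeR, with a median LFC of 0.22; 3 had an unadjusted p under 0.05 and DESeq2 called 0. In the renin-angiotensin list of 8 tested genes Ren1 alone passed, and Ace, the converting enzyme that makes angiotensin II, had an LFC of −0.10. Ren1 is also on the list of 13 mesangial and mural cell markers, of which none of the other 12 passed and the median LFC was −0.00. Among 13 genes of sodium transport and the aldosterone response, 0 passed by edgeR (2 at an unadjusted p under 0.05, 1 lower by DESeq2).

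**Figure D1:**
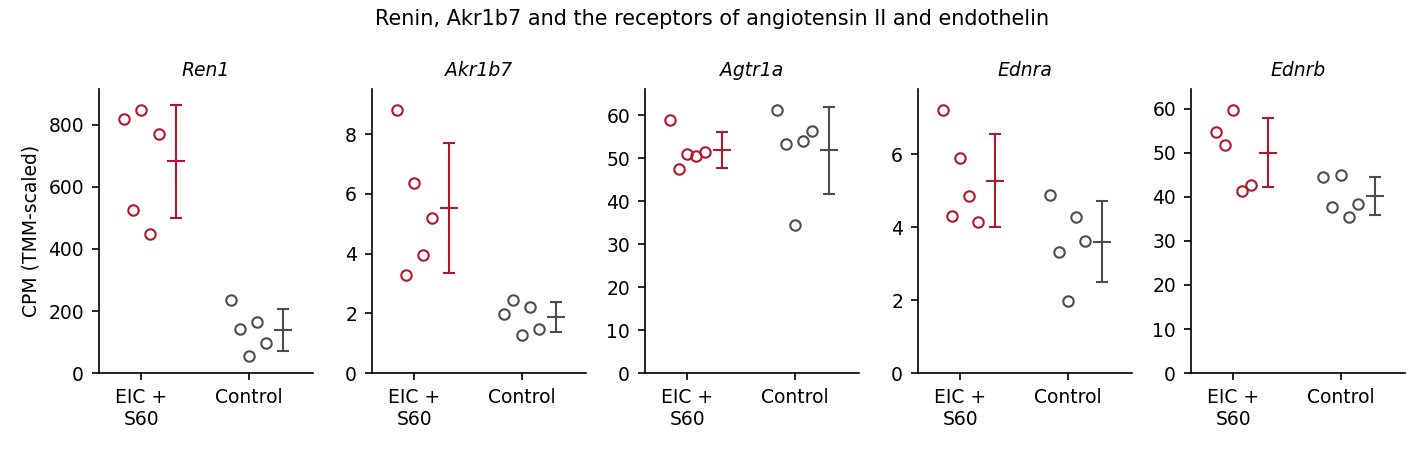
CPM per mouse of Ren1, Akr1b7, Agtr1a, Ednra and Ednrb in EIC + S60 (left, red) and Control (right, grey). Each open circle is 1 mouse (n = 5 in either group), with bars for mean ± SD on an axis that starts at 0. All EIC + S60 mice lie above all Control mice for Ren1 and Akr1b7, while values of the groups overlap for the receptor genes.

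Both arms of the clock loop held DE genes. In a list of 6 genes that follow the phase of Arntl, 3 fell (Arntl, Npas2 and Clock), 1 rose (Cry1) and 2 did not pass, so that its members moved both ways. In the list of 14 genes in antiphase to Arntl, 7 rose, none fell and 7 did not pass, with a median LFC of 0.43, against −0.01 over all genes tested. All 5 EIC + S60 mice lay above all Control mice for 7 of the 14, against 2.08% of all genes tested. Over all genes tested, edgeR called 0.822% higher and 0.441% lower. Without a single library the number of the 14 that rose ranged over 5 to 8, and it was 6 with 4 mice against 4. DESeq2 called 9 of the 14 higher and 1 lower. No source used here gives the hour of harvest.

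Motifs of the clock were looked for in the promoters of these 20 genes, from 250 bases before to 50 bases after the start, for the 17 that RefSeq's table (GRCm38.p6) gives. The E-box (CACGTG, its own reverse complement), the site bound by BMAL1 with CLOCK, was in 5 of the 17 (Bhlhe41, Ciart, Cry1, Per1 and Tef) and in 11.5% of tested genes with a promoter. The D-box (TTANGTAA on either strand), bound by DBP, TEF and HLF, was in Per3 alone and in 1.93% of tested genes. The ROR element (AANTN directly followed by GGTCA, on either strand), bound by REV-ERB repressors, was in Arntl alone and in 0.533% of tested genes. The promoters of Cry1, Per3 and Arntl are printed 5′ to 3′ on the gene's strand, with the motif in capitals, as 1 example of each motif among the genes that changed. They are Cry1 (chr10:85185005-85185304, minus strand, E-box from base −60 before the start), Per3 (chr4:151044616-151044915, minus strand, D-boxes from bases −205 and −158) and Arntl (chr7:113207261-113207560, plus strand, ROR element from base 28 after the start). Arntl's other listed start holds none of the motifs. A match describes the letters only.
Cry1: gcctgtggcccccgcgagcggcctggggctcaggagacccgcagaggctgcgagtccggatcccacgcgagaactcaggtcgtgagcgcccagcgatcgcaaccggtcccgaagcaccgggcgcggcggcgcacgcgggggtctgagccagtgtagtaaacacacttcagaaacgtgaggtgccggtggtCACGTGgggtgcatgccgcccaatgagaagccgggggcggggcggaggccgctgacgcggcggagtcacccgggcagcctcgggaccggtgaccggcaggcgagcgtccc
Per3: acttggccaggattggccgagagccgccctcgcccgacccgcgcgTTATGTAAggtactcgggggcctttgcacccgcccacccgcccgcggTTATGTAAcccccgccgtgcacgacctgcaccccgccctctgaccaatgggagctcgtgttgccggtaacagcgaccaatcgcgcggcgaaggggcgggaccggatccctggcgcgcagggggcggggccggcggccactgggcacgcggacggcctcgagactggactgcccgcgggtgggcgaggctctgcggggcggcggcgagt
Arntl: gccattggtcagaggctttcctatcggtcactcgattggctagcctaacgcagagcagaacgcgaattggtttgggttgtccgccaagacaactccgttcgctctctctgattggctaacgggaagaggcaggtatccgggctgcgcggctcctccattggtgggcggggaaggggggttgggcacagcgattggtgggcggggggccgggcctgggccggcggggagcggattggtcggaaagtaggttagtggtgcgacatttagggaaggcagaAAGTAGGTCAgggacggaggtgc

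Arntl, whose ROR element is shown above, was at 0.601, 0.823, 1.59, 0.946 and 0.648 CPM in EIC + S60, against 3.39, 2.49, 3.43, 2.27 and 2.98 CPM in Control. No mouse overlapped, and EIC + S60 73 was the nearest to Control (LFC −1.67, SE 0.25, adjusted p = 0.00898). The call of Arntl held in all 10 fits with a library left out. It was lost by edgeR without the 3 libraries of greatest depth (adjusted p = 0.0964). Npas2, a partner of BMAL1, was at 1.13, 0.470, 0.235, 0.557 and 0.648 CPM in EIC + S60, against 1.98, 1.36, 1.71, 1.86 and 2.12 CPM in Control, again without overlap (LFC −1.56, SE 0.31, adjusted p = 0.0323). That call was lost without EIC + S60 72, 73, 74 or 75 or without Control 651, 652, 654 or 655 (highest adjusted p = 0.0805) and had an adjusted p of 0.0943 with 4 mice against 4. Clock, the other partner, fell by less (LFC −0.36, SE 0.07, adjusted p = 0.0239), at 43.4 ± 3.64 CPM in EIC + S60 and 55.9 ± 3.56 CPM in Control, and its call was lost without EIC + S60 72 or without Control 654 or 655 (highest adjusted p = 0.0576).

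Cry1, a repressor of BMAL1, was at 6.74, 8.06, 11.2, 12.5 and 7.85 CPM in EIC + S60, against 1.65, 2.51, 3.75, 3.03 and 2.75 CPM in Control. Every EIC + S60 mouse was above every Control mouse, a 3.45-fold rise (LFC 1.79, SE 0.22, adjusted p = 0.00291). Per2, a partner of CRY proteins in repression, was at 34.2 ± 3.13 CPM in EIC + S60 and 16.4 ± 2.87 CPM in Control (LFC 1.06, SE 0.12, adjusted p = 0.00111), with Control 655 the lowest of its group. Per3, whose D-boxes are shown above, was at 24.7 ± 2.23 CPM in EIC + S60 and 15.9 ± 0.991 CPM in Control (LFC 0.64, SE 0.08, adjusted p = 0.00177). Among output factors, Dbp rose (LFC 0.71, SE 0.10, adjusted p = 0.00381), as did Tef (LFC 0.35, SE 0.08, adjusted p = 0.0483). Wee1, a kinase that holds cells before mitosis and is driven by the clock, rose by 0.63 and Cry2 by 0.55. The rises of Cry1, Per2, Per3, Dbp, Wee1 and Cry2 were called in all 10 fits with a library left out, whereas that of Tef was lost without EIC + S60 71, 73, 74 or 75 or without Control 652, 653, 654 or 655 (highest adjusted p = 0.119). Nr1d2, which encodes REV-ERB-beta, rose slightly (LFC 0.29, SE 0.06, adjusted p = 0.0353), and its call was lost without EIC + S60 72, 73, 74 or 75 or without Control 652, 654 or 655 (highest adjusted p = 0.102). Nr1d1, which encodes REV-ERB-alpha, had the only negative LFC of the antiphase list (LFC −0.45, SE 0.13, adjusted p = 0.133; 0.0284 by DESeq2) and its groups overlapped. Per1, which glucocorticoids also induce, varied widely among mice of both groups (54.0 ± 27.2 CPM in EIC + S60 and 39.9 ± 14.2 CPM in Control; LFC 0.43, SE 0.41, adjusted p = 0.698).

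**Figure D2:**
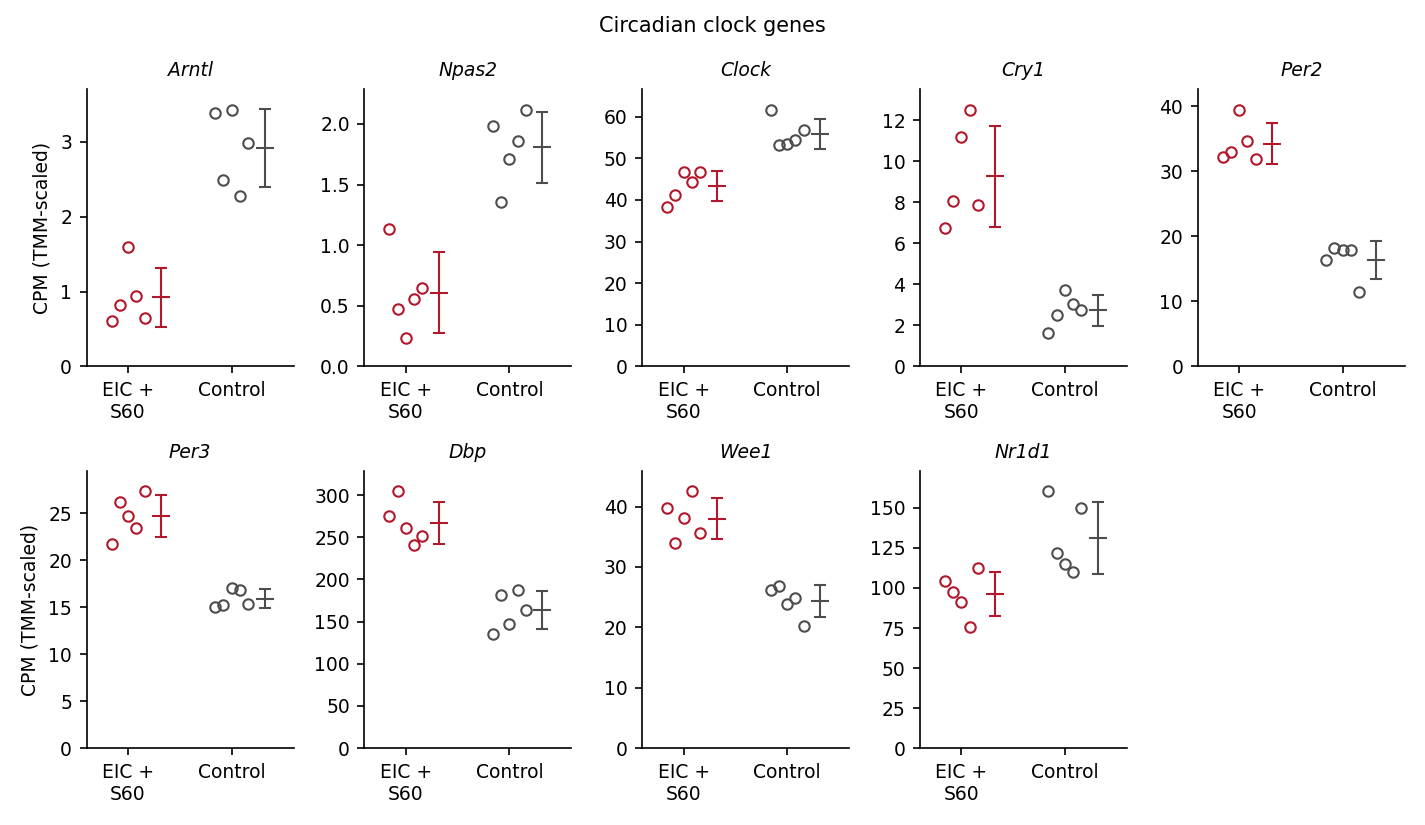
CPM per mouse of 9 clock genes in EIC + S60 (left, red) and Control (right, grey). Each open circle is 1 mouse (n = 5 in either group), with bars for mean ± SD on axes that start at 0. Arntl, Npas2 and Clock lie lower in EIC + S60, Cry1, Per2, Per3, Dbp and Wee1 lie higher, and Nr1d1 overlaps between groups.

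Immediate early genes are those that cells switch on within minutes of a stimulus. Of 17 tested, 4 fell in EIC + S60 (Fos, Nr4a1, Btg2 and Klf4), against 0.441% of all genes tested, and none rose. Of the 17, 16 had a negative LFC, with a median of −0.60. Fos, a subunit of the AP-1 transcription factor (chromosome 12, 85473890 to 85477273), was at 1.13, 0.647, 3.24, 2.004 and 3.46 CPM in EIC + S60, against 18.6, 15.5, 10.4, 11.6 and 27.5 CPM in Control. The highest EIC + S60 mouse was at less than the lowest Control mouse (LFC −2.95, SE 0.45, adjusted p = 0.0127), and the call held in all 10 fits with a library left out. Nr4a1, an orphan nuclear receptor, was nearly uniform in EIC + S60, at 3.89 ± 0.229 CPM in EIC + S60 and 10.8 ± 4.88 CPM in Control, and Control 655 was far above the rest at 18.9 CPM (LFC −1.47, SE 0.23, adjusted p = 0.0156). The Nr4a1 call was lost without EIC + S60 73 (highest adjusted p = 0.0542), and adjusted p was 0.0682 with 4 mice against 4 and 0.18 with all 20 libraries in the model. Btg2, an antiproliferative gene, fell as well, at 14.9 ± 1.31 CPM in EIC + S60 and 29.6 ± 6.19 CPM in Control (LFC −0.98, SE 0.13, adjusted p = 0.00375).

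Egr1, a zinc finger factor of the same kind, was at 8.74, 3.82, 9.94, 7.74 and 28.7 CPM in EIC + S60, against 66.0, 40.5, 23.4, 53.2 and 119 CPM in Control. EIC + S60 75 stood above Control 653, so the groups overlapped, and the gene did not pass by edgeR in spite of a large LFC (LFC −2.31, SE 0.58, adjusted p = 0.141; 0.00513 by DESeq2 and 0.0317 with all 20 libraries). Junb, another AP-1 subunit, also overlapped (LFC −0.97, SE 0.30, adjusted p = 0.197). Klf4 fell by 0.48 on the log2 scale, and its call was lost without EIC + S60 71, 73, 74 or 75 or without Control 652, 653, 654 or 655 (highest adjusted p = 0.125). The summed level of the listed immediate early genes was 383 to 480 CPM in EIC + S60 and 530 to 834 CPM in Control. DESeq2 called 8 of the 17 lower, and without EIC + S60 73 edgeR called 2.

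Rasd1, a Ras-like GTPase known to be induced by glucocorticoids, fell as well, at 4.20, 6.94, 5.06, 5.29 and 2.92 CPM in EIC + S60, against 11.3, 16.01, 10.4, 11.8 and 17.7 CPM in Control (LFC −1.47, SE 0.22, adjusted p = 0.00785), and its groups did not overlap, but adjusted p was 0.0507 with all 20 libraries. On a list of 14 other glucocorticoid-induced genes, 2 rose (Mt1 and Mt2) and none fell. Mt1, a metallothionein that binds zinc and copper, was at 155 ± 19.6 CPM in EIC + S60 and 85.6 ± 5.06 CPM in Control (LFC 0.85, SE 0.08, adjusted p = 0.00096), and Mt2, its neighbor and close paralog, at 48.9 ± 7.99 CPM in EIC + S60 and 24.9 ± 5.61 CPM in Control (LFC 0.97, SE 0.15, adjusted p = 0.0145). Slc39a10, a zinc importer, was lower in each EIC + S60 mouse than in any Control mouse (26.5 ± 1.71 CPM in EIC + S60 and 41.4 ± 3.32 CPM in Control; LFC −0.64, SE 0.07, adjusted p = 0.00111). Tfrc, the transferrin receptor that takes up iron, fell too (LFC −0.66, SE 0.11, adjusted p = 0.0159), a gene chosen after its values were seen whose call was lost without EIC + S60 73 (highest adjusted p = 0.0544).

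Grem1, a secreted antagonist of BMP2, BMP4 and BMP7 (chromosome 2, 113746164 to 113758646), was at 0.801, 0.470, 1.06, 1.39 and 0.900 CPM in EIC + S60, against 4.57, 5.52, 2.16, 4.34 and 2.28 CPM in Control. All EIC + S60 mice were below all Control mice, and Control 653 and 655 were lower than the other Control mice (LFC −2.04, SE 0.31, adjusted p = 0.00898). The call held in all 10 fits with a library left out, but was lost by edgeR without the 3 libraries of greatest depth (adjusted p = 0.118). Among 20 tested BMP and TGF-beta genes Grem1 was the only one that passed. Ccnd1, the cyclin that takes cells from G1 toward S phase, was at 223, 181, 222, 191 and 206 CPM in EIC + S60, against 534, 445, 269, 354 and 307 CPM in Control (LFC −0.90, SE 0.17, adjusted p = 0.0294). The spread was wider in Control, where mice 651 and 652 were highest, and the call was lost without EIC + S60 71, 72, 73, 74 or 75 or without Control 652 or 654 (highest adjusted p = 0.0723). It was 1 of 14 tested proliferation genes to pass, and the others had LFCs on both sides of 0.

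Some collagen chain genes of the glomerular basement membrane were lower. RNA of whole kidney tissue cannot place these changes in the glomerulus. Col4a3 and Col4a4, which encode the alpha-3 and alpha-4 chains of its type IV collagen, are neighbors on chromosome 1 (82586921 to 82722059 on the plus strand and 82448423 to 82586849 on the minus strand) and are transcribed away from each other. Col4a3 was at 132, 137, 131, 138 and 147 CPM in EIC + S60, against 189, 173, 186, 194 and 208 CPM in Control, with no overlap (LFC −0.47, SE 0.06, adjusted p = 0.00278), and its call held in all 10 fits with a library left out. Col4a4 was at 129 ± 13.4 CPM in EIC + S60 and 172 ± 16.3 CPM in Control (LFC −0.42, SE 0.08, adjusted p = 0.0305), and its call was lost without EIC + S60 71, 72, 73 or 74 or without Control 654 (highest adjusted p = 0.0812). A list of 16 basement membrane and nephronectin genes was set up after values were seen. Of its 15 tested genes, 3 fell (with Npnt the last), against 0.441% of all genes tested, none rose and the median LFC was −0.18. The number that fell was 1 without EIC + S60 71 or 73 or without Control 654. Npnt encodes nephronectin, a ligand of integrin alpha-8 beta-1 (LFC −0.43, SE 0.08, adjusted p = 0.0272; 0.102 with all 20 libraries), and its call was lost without EIC + S60 71, 73 or 75 or without Control 652, 654 or 655 (highest adjusted p = 0.0853). Podocytes make these collagen chains in the glomerulus. Of the podocyte markers, 0 of 12 passed by edgeR (2 at an unadjusted p under 0.05, 0 by DESeq2), with a median LFC of −0.02, and they summed to 716 to 979 CPM in EIC + S60 and 780 to 1152 CPM in Control. Over the 23 tested matrix genes, 3 fell (Col4a3, Col4a4 and Mmp15) and none rose, and 1 fell without EIC + S60 73.

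Other genes of the cell surface and its surroundings changed in both directions. Itgb6, the epithelial integrin subunit that with alpha-v activates latent TGF-beta, was at 44.3 ± 5.48 CPM in EIC + S60 and 72.8 ± 8.78 CPM in Control (LFC −0.72, SE 0.10, adjusted p = 0.00458), without overlap. Mmp15, a membrane-bound matrix metalloproteinase, fell by 0.90 on the log2 scale (adjusted p = 0.0157), and its call was lost without EIC + S60 73 (highest adjusted p = 0.0553). Prss23, a secreted serine protease, was very even in EIC + S60, at 23.9 ± 0.592 CPM in EIC + S60 and 35.9 ± 3.39 CPM in Control (LFC −0.59, SE 0.07, adjusted p = 0.00161). Nrp1, a co-receptor for VEGF and semaphorins, was at 120.6 ± 4.18 CPM in EIC + S60 and 77.0 ± 14.1 CPM in Control (LFC 0.65, SE 0.10, adjusted p = 0.0101), and its rise was called in all 10 fits with a library left out. Esm1, the endothelial proteoglycan endocan, rose by 0.65 (adjusted p = 0.0252; 0.101 with all 20 libraries and 0.0751 with 4 mice against 4), and its call was lost without EIC + S60 72 or 73 or without Control 652 (highest adjusted p = 0.0677). Of 14 endothelial markers 0 passed by edgeR, 2 had an unadjusted p under 0.05, and DESeq2 called 0. Itgb6, Npnt, Nrp1 and Esm1 were chosen after their values were seen.

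**Figure D3:**
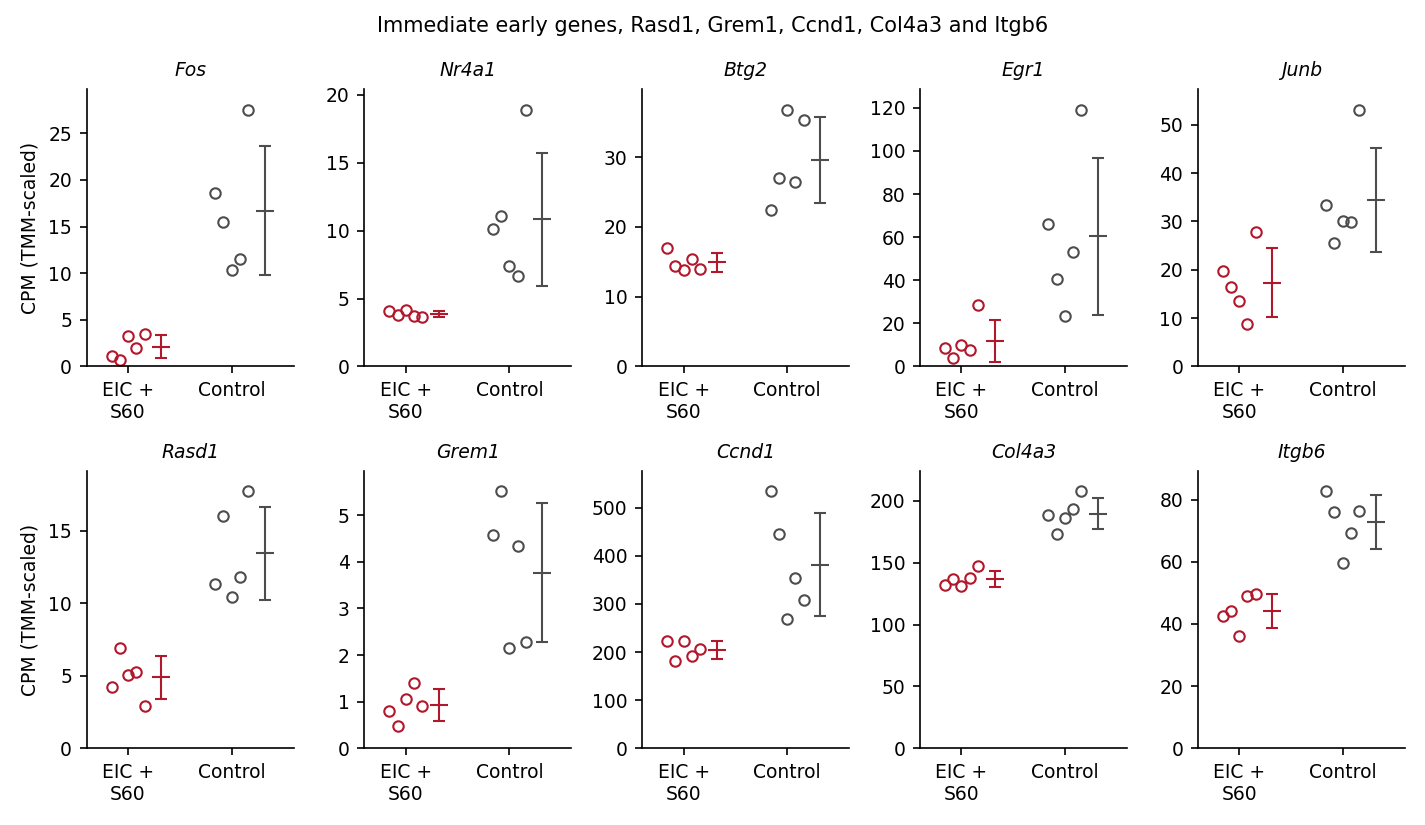
CPM per mouse of 10 genes with negative LFCs in EIC + S60 (left, red) over Control (right, grey). Each open circle is 1 mouse (n = 5 in either group), with bars for mean ± SD on axes that start at 0. Fos, Nr4a1, Btg2, Rasd1, Grem1, Ccnd1, Col4a3 and Itgb6 do not overlap between groups, whereas Egr1 and Junb did not pass and are shown for comparison.

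The gene with the smallest p was Tspan4, a tetraspanin of the cell surface (chromosome 7, 141475240 to 141493427). It was at 106, 95.7, 107, 99.98 and 87.5 CPM in EIC + S60, against 57.8, 58.7, 52.8, 61.5 and 57.5 CPM in Control, a narrow range within each group and a wide gap between them (LFC 0.78, SE 0.07, adjusted p = 0.000401). Among the other genes of smallest p were Jpt2 (18.6 ± 2.25 CPM in EIC + S60 and 33.8 ± 3.36 CPM in Control; LFC −0.86, SE 0.09, adjusted p = 0.00111), and Adap1, a GTPase-activating protein for ARF6 (18.5 ± 2.18 CPM in EIC + S60 and 32.3 ± 1.81 CPM in Control; LFC −0.80, SE 0.08, adjusted p = 0.00096). Prnp, which encodes the prion protein, was at 331 ± 19.3 CPM in EIC + S60 and 209 ± 21.6 CPM in Control (LFC 0.67, SE 0.07, adjusted p = 0.00142). Gda, the guanine deaminase, was at 14.8, 17.2, 20.2, 17.8 and 14.3 CPM in EIC + S60, against 9.14, 6.47, 7.49, 7.78 and 6.12 CPM in Control, with no overlap (LFC 1.18, SE 0.13, adjusted p = 0.00111). The calls of Tspan4, Jpt2, Adap1, Prnp and Gda held in all 10 fits with a library left out. Nkain1, a membrane protein that binds the Na,K-ATPase, rose by 1.31 (adjusted p = 0.0272), and its call was lost without EIC + S60 71, 72 or 73 or without Control 651, 652, 653 or 655 (highest adjusted p = 0.0677). Pdzrn4, a PDZ domain protein of low level, was at 0.568 ± 0.231 CPM in EIC + S60 and 1.78 ± 0.617 CPM in Control (LFC −1.65, SE 0.31, adjusted p = 0.0299). The call of Pdzrn4 was lost without EIC + S60 71, 72, 73 or 75 or without Control 652 or 654 (highest adjusted p = 0.088).

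Several metabolic enzymes changed. Ces1g and Ces1d are carboxylesterases that act on lipids and drugs and belong to a family of near-identical genes, so their counts are uncertain. Ces1d was chosen after its values were seen. Ces1d was at 739.8, 768, 819, 662 and 704 CPM in EIC + S60, against 490.2, 423, 354, 377 and 445 CPM in Control, without overlap (LFC 0.82, SE 0.09, adjusted p = 0.00142). Ces1g was at 9.21, 5.76, 7.65, 4.23 and 4.11 CPM in EIC + S60, against 1.96, 1.85, 0.508, 2.14 and 2.12 CPM in Control, where Control 653 was far below the other Control mice (LFC 1.83, SE 0.37, adjusted p = 0.0237), and its call was lost without EIC + S60 71 or 73 or without Control 652 or 654 (highest adjusted p = 0.0667). Ddc, which makes dopamine from L-DOPA, moved the other way, at 89.1 ± 10.8 CPM in EIC + S60 and 164 ± 36.4 CPM in Control (LFC −0.88, SE 0.14, adjusted p = 0.0146), and its call was lost without EIC + S60 73 (highest adjusted p = 0.0519). Pck1, the enzyme that commits carbon to glucose synthesis, was at 6336 ± 642 CPM in EIC + S60 and 4234 ± 776 CPM in Control (LFC 0.58, SE 0.13, adjusted p = 0.0438), and its call was lost without EIC + S60 71, 72, 73, 74 or 75 or without Control 652 or 654 (highest adjusted p = 0.127). It was the only one of 15 proximal tubule markers to pass, although 14 of the 15 had a positive LFC (median 0.20). Control 653, the library with urothelial transcripts, had the lowest sum of these markers, and the median LFC of the list was 0.12 without it.

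The Nat8 family on chromosome 6 encodes N-acetyltransferases, of which NAT8 makes mercapturic acids in the kidney. The list of this family was set up after values were seen, so its counts describe the members and are no test of the family. Of 8 tested members 6 rose, against 0.822% of all genes tested, none fell, and the median LFC was 0.69. Nat8f5 was at 42.4, 39.9, 58.7, 29.8 and 37.8 CPM in EIC + S60, against 19.9, 23.8, 17.7, 12.7 and 17.03 CPM in Control, with no overlap (LFC 1.18, SE 0.19, adjusted p = 0.0196), and its call was lost without EIC + S60 71 or without Control 655 (highest adjusted p = 0.0531). Nat8 itself was at 147 ± 19.99 CPM in EIC + S60 and 81.3 ± 12.4 CPM in Control (LFC 0.85, SE 0.11, adjusted p = 0.00438), Nat8f6 at 130.1 ± 10.9 CPM in EIC + S60 and 76.6 ± 9.83 CPM in Control (LFC 0.76, SE 0.09, adjusted p = 0.00155) and Nat8f1 at 527 ± 48.5 CPM in EIC + S60 and 375 ± 31.9 CPM in Control (LFC 0.49, SE 0.08, adjusted p = 0.012). Nat8f3 and Nat8f7 rose by 0.37 and 0.67 (adjusted p = 0.0321 and 0.0272), calls that held in 4 and 5 of the 10 fits with a library left out. These genes are clustered copies, and Nat8f5 (85817218 to 85820972) and Nat8f6 (85808024 to 85820954) overlap on the same strand, so they are not independent and reads could be shared between them. Without a single library 3 to 6 of the 8 were called, the 3 without Control 655, and with 4 mice against 4 the number was 3.

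Fatty acid oxidation was examined with a list of 39 enzymes and carriers, set up like the Nat8 list after values were seen. Of these 6 rose, against 0.822% of all genes tested, none fell, and the median LFC was 0.15. Acaa1b, a thiolase of peroxisomes, was at 385 ± 24.7 CPM in EIC + S60 and 233 ± 26.8 CPM in Control (LFC 0.72, SE 0.08, adjusted p = 0.00155), and Abcd3, a peroxisomal transporter of fatty acyl-CoA, at 456 ± 45.4 CPM in EIC + S60 and 325 ± 28.9 CPM in Control (LFC 0.49, SE 0.08, adjusted p = 0.0133). Slc25a20, which carries acylcarnitines into mitochondria, was at 84.6, 89.6, 83.3, 89.8 and 67.8 CPM in EIC + S60, against 59.0, 54.0, 57.8, 45.7 and 56.3 CPM in Control (LFC 0.60, SE 0.09, adjusted p = 0.00563), without overlap. Acot3, Eci2 and Etfb rose by 0.72, 0.32 and 0.32 (adjusted p = 0.0265, 0.0442 and 0.0353; 0.15 for Etfb with all 20 libraries), calls that held in 4, 2 and 2 of the 10 fits with a library left out. The number that rose was 3 without EIC + S60 71, 73 or 74 or without Control 652 or 654, and 2 without the 3 libraries of greatest depth. On the list of 18 tested PPAR-alpha and fasting genes 0 passed by edgeR, 4 had an unadjusted p under 0.05 and DESeq2 called 2, while 17 had a positive LFC.

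Enzymes of glycine and one-carbon metabolism changed in both directions, 2 higher and 3 lower of 20 tested, on a list also set up after values were seen. Of all genes tested, 0.822% were higher and 0.441% lower. Mthfd1l, a mitochondrial enzyme that makes formate from folate units, was at 6.74, 5.82, 6.47, 6.35 and 5.65 CPM in EIC + S60, against 2.73, 3.44, 3.37, 3.51 and 2.59 CPM in Control (LFC 0.99, SE 0.13, adjusted p = 0.00308), a clear separation that held in all 10 fits. Gldc, which with Amt cleaves glycine in mitochondria, rose (LFC 0.53, SE 0.10, adjusted p = 0.0263) while Amt fell (LFC −0.42, SE 0.09, adjusted p = 0.0334). Shmt1, the cytosolic enzyme between serine and glycine, and Chdh, which oxidizes choline, fell by 0.27 and 0.34 on the log2 scale (adjusted p = 0.0206 and 0.0296). None of the falls was called without EIC + S60 71 or 73 or without Control 654, and 1 was without EIC + S60 72 or 74 or without Control 652 or 655. Of the rises, 1 was called without EIC + S60 71, 73 or 74 or without Control 652 or 655. Sesn2, a stress-induced sensor of leucine, rose (LFC 0.58, SE 0.10, adjusted p = 0.0203) as the only DE gene among 13 tested ATF4 and serine synthesis genes, and its call was lost without EIC + S60 71 or 73 or without Control 652 (highest adjusted p = 0.0639). Nampt, which salvages NAD, and Igfbp4, which binds insulin-like growth factors, rose by 0.35 and 0.50 (adjusted p = 0.0067 and 0.0265; 0.052 for Igfbp4 with all 20 libraries), both chosen after their values were seen. The call of Igfbp4 was lost without EIC + S60 71, 73 or 74 or without Control 652 or 655 (highest adjusted p = 0.0667). Trpm6, a magnesium channel of the distal convoluted tubule, fell (LFC −0.73, SE 0.14, adjusted p = 0.033; 0.173 with all 20 libraries), and was the only one of 11 thick ascending limb and distal tubule markers to pass. Its call was lost without EIC + S60 71, 72, 73, 74 or 75 or without Control 652, 653 or 655 (highest adjusted p = 0.109).

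Macrophage genes were higher in EIC + S60 on average, but only 1 of 19 tested macrophage and monocyte markers passed. It was Adgre1, the F4/80 antigen (chromosome 17, 57358691 to 57483527), at 3.003, 6.88, 3.06, 6.74 and 3.71 CPM in EIC + S60, against 1.93, 2.16, 1.52, 2.34 and 1.65 CPM in Control. EIC + S60 72 and 74 were highest, and the lowest EIC + S60 mouse lay above the highest Control mouse (LFC 1.27, SE 0.25, adjusted p = 0.0358). The call was lost without EIC + S60 72, 74 or 75 or without Control 651, 652, 653, 654 or 655 (highest adjusted p = 0.0869) and was also lost with all 20 libraries in the model (adjusted p = 0.0593) and with 4 mice against 4 (0.0797). The tested markers had a median LFC of 0.69, 18 of 19 were positive, 12 had an unadjusted p under 0.05 and DESeq2 called 7. Cd163, Ms4a7, Ms4a6b, Ms4a6d and Clec12a did not reach the count filter and are in none of these numbers. All 24 listed markers summed to 179 to 247 CPM in EIC + S60 and 158 to 184 CPM in Control. Clec4a1, a lectin of monocytes, was at 0.812 ± 0.448 CPM in EIC + S60 and 0.2001 ± 0.0890 CPM in Control (LFC 1.88, adjusted p = 0.0715; 0.0191 by DESeq2). Its Control values, 0.0635 to 0.275 CPM, were near the floor, so its LFC is uncertain. It reached the count filter in only 5 of the 10 fits with a library left out. Lyz2, the lysozyme of macrophages, had LFC 0.79 (adjusted p = 0.17), and its groups overlapped.

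A few other genes with ties to leukocytes or immunity passed, and RNA of whole kidney tissue cannot place them in a cell type. Selplg, the P-selectin ligand of leukocytes, was at 1.92 ± 0.291 CPM in EIC + S60 and 0.823 ± 0.238 CPM in Control (LFC 1.18, SE 0.22, adjusted p = 0.0284; 0.0602 with all 20 libraries), and Smpdl3b, a membrane-anchored phosphodiesterase of macrophages and podocytes, at 6.74, 8.11, 9.36, 5.68 and 5.47 CPM in EIC + S60, against 3.39, 2.62, 3.87, 2.75 and 2.67 CPM in Control (LFC 1.20, SE 0.17, adjusted p = 0.00647), with no overlap. Cybb, the catalytic subunit of the phagocyte oxidase, rose by 0.67 (adjusted p = 0.02; 0.15 with all 20 libraries), Plac8 by 0.52 (adjusted p = 0.0272) and Unc93b1, which escorts nucleic acid-sensing Toll-like receptors to endosomes, by 0.39 (adjusted p = 0.0272; 0.119 with all 20 libraries). These 3 were chosen after their values were seen. The call of Cybb was lost without EIC + S60 71 (highest adjusted p = 0.0561). That of Plac8 was lost without EIC + S60 71, 72, 73 or 75 or without Control 652 or 655 (highest adjusted p = 0.0751), and that of Unc93b1 was lost without EIC + S60 71, 72 or 75 or without Control 652, 654 or 655 (highest adjusted p = 0.0733). With 4 mice against 4, adjusted p was 0.0819 for both Plac8 and Unc93b1. Mbl2, a lectin that starts the lectin pathway of complement, was at 1.59 ± 0.445 CPM in EIC + S60 and 0.694 ± 0.141 CPM in Control (LFC 1.15, SE 0.23, adjusted p = 0.0392), and its call was lost in each of the 10 fits with a library left out. Vim, the intermediate filament vimentin, which marks injured tubules as well as mesenchyme and leukocytes, was at 61.3 ± 10.4 CPM in EIC + S60 and 42.8 ± 4.20 CPM in Control (LFC 0.52, SE 0.11, adjusted p = 0.047), and EIC + S60 74 lay below Control 653. The call of Vim was lost without EIC + S60 71, 72, 73 or 75 or without Control 651, 652, 654 or 655 (highest adjusted p = 0.131). Smpdl3b was called in all 10 of these fits, whereas Selplg was lost without EIC + S60 71, 73 or 75 or without Control 652, 654 or 655 (highest adjusted p = 0.0761). Without the 3 libraries of greatest depth, adjusted p by edgeR was 0.0507 for Smpdl3b.

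C1q, the recognition subunit of the classical complement pathway, had positive LFCs that did not pass with all 10 libraries. C1qa was at 15.6, 15.7, 10.6, 13.8 and 8.46 CPM in EIC + S60, against 5.98, 7.85, 6.22, 10.1 and 7.30 CPM in Control, with the lowest EIC + S60 mouse below the highest Control mouse (LFC 0.78, SE 0.19, adjusted p = 0.0839; 0.00646 by DESeq2). It did pass without EIC + S60 75 (adjusted p = 0.0286) and with 4 mice against 4 (adjusted p = 0.046). C1qb and C1qc had LFCs of 0.58 and 0.59 (adjusted p = 0.27 and 0.124). In the list of 8 classical complement genes 0 passed by edgeR, 6 had an unadjusted p under 0.05, DESeq2 called 4 and the median LFC was 0.56. C3, the central component, was at 139.6 ± 62.4 CPM in EIC + S60 and 63.4 ± 14.02 CPM in Control (LFC 1.14, SE 0.35, adjusted p = 0.182), with EIC + S60 74 among the Control values.

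Genes induced by interferon-gamma and those of antigen presentation did not pass. Tgtp2, an interferon-inducible GTPase nearly identical to its neighbor Tgtp1, was at 2.45 ± 0.885 CPM in EIC + S60 and 1.87 ± 0.3601 CPM in Control, with overlap (LFC 0.39, SE 0.23, adjusted p = 0.538). For Tgtp1 the LFC was 0.27 (adjusted p = 0.75). Reads may be shared between these copies. Iigp1, a GTPase that disrupts parasite vacuoles, was at 5.21, 6.23, 5.53, 4.18 and 3.89 CPM in EIC + S60, against 2.73, 2.98, 2.54, 4.27 and 3.53 CPM in Control, where the highest Control mouse overlapped EIC + S60 74 and 75 (LFC 0.65, SE 0.18, adjusted p = 0.126; 0.0346 by DESeq2). Of 19 tested interferon-gamma-inducible genes 0 passed by edgeR, 7 had an unadjusted p under 0.05, DESeq2 called 1, and the median LFC was 0.29. For 25 type I interferon-stimulated genes the numbers were 0, 1 and 0, with a median of 0.07. For 7 genes of MHC class II presentation they were 0, 4 and 1, with a median of 0.57, and H2-Aa and Cd74 had LFCs of 0.58 and 0.60. Of 6 leukocyte integrin genes 0 passed, 4 had an unadjusted p under 0.05, DESeq2 called 1 and the median LFC was 0.84. Itgb2, the beta-2 subunit they share, was at 3.97 ± 0.548 CPM in EIC + S60 and 2.38 ± 0.951 CPM in Control (LFC 0.73, SE 0.24, adjusted p = 0.197).

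Genes that the study had picked on these same mice were read in the same way, and they are not independent evidence of a direction. Of the 15 genes it gives for EIC against Control, 12 were tested here, all 12 had a positive LFC (median 0.72) and Adgre1 alone was a DE gene. Of the 7 genes it measured by qRT-PCR, 0 passed by edgeR and by DESeq2, 3 had an unadjusted p under 0.05, all had a positive LFC and the median was 0.47. Among these, Irgm2, a GTPase of host membranes, had an LFC of 0.44 (adjusted p = 0.143), Fcer1g, the signaling chain of Fc receptors, 0.47 (adjusted p = 0.458), and Nlrc5, which switches on MHC class I genes, 0.47 at under 1 CPM (adjusted p = 0.653).

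**Figure D4:**
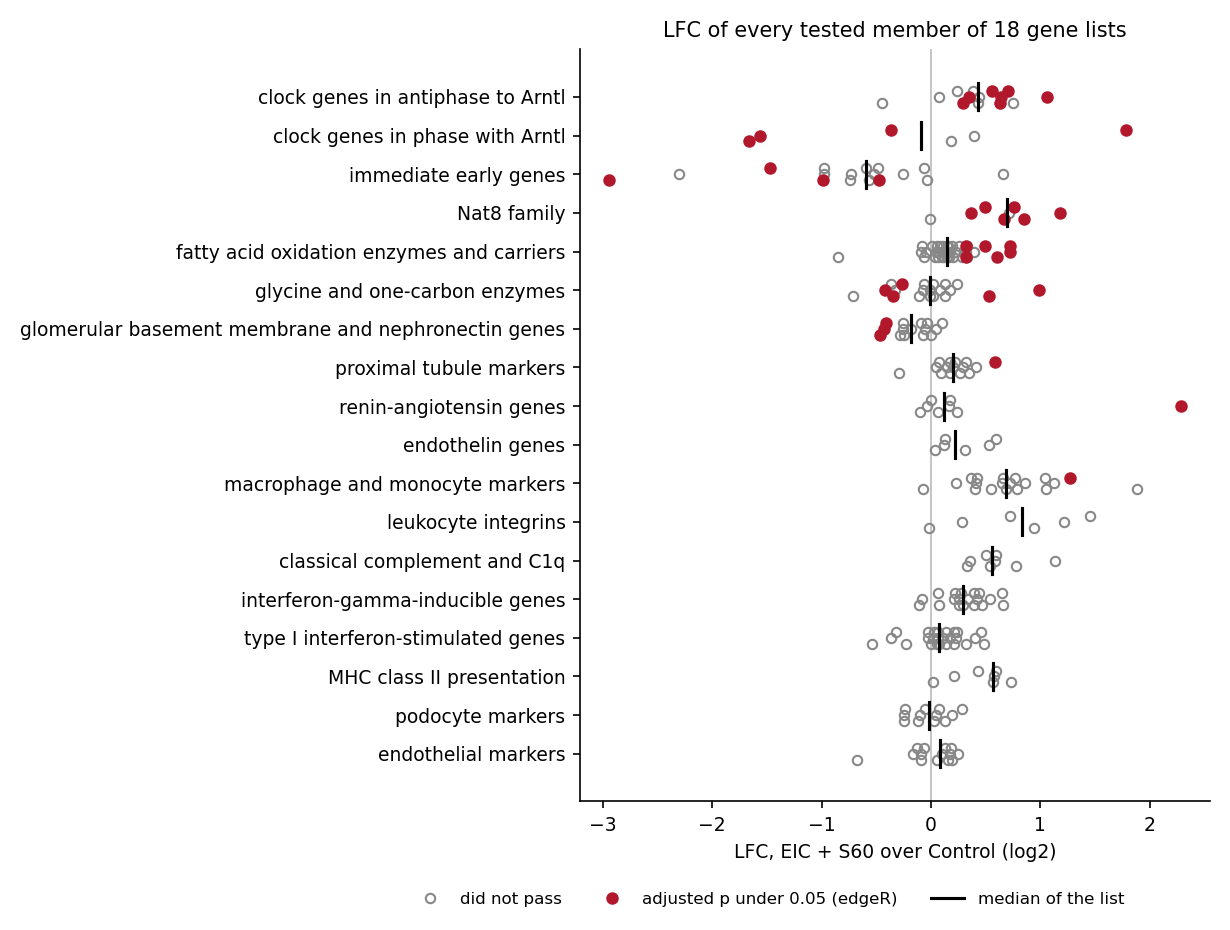
LFC of EIC + S60 over Control (horizontal axis, log2) for every tested member of 18 gene lists (rows). Filled red points are DE genes by edgeR, open grey points did not pass and vertical bars are list medians. Clock genes in phase with Arntl hold DE genes on both sides of 0, immediate early genes hold them on the negative side, and the interferon, complement and integrin lists hold open points, with medians from 0.07 to 0.84.

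The genes above were then set beside their LFCs in the other EIC-injected groups, from a model of all 20 libraries in which all groups are compared with the same 5 Control mice, so that the LFCs share an error. For Ren1 the LFC over Control was 0.48 in EIC, 2.29 in EIC + S60 and 2.35 in EIC + S120. Its renin cell companion Akr1b7 stood at 0.41 in EIC, 1.52 in EIC + S60 and 1.13 in EIC + S120. Among the EIC-injected groups, both genes had their lowest LFC in EIC.

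Clock genes had other orders. The LFC of Cry1 was 2.12 in EIC, 1.80 in EIC + S60 and 2.93 in EIC + S120. That of Per2 was 1.27 in EIC, 1.06 in EIC + S60 and 1.51 in EIC + S120, and that of Arntl was −2.09 in EIC, −1.66 in EIC + S60 and −0.37 in EIC + S120. Cry1 and Per2 lay above Control in all 3 groups. Arntl had a negative LFC in all 3, but in EIC + S120 it did not pass by edgeR (SE 0.34, adjusted p = 0.625). For the immediate early gene Fos the LFC was −3.10 in EIC, −2.95 in EIC + S60 and −0.59 in EIC + S120. Egr1 had −3.12 in EIC, −2.31 in EIC + S60 and −0.12 in EIC + S120. Both were nearest to Control in EIC + S120.

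Grem1 was below Control in each group, with −1.71 in EIC, −2.04 in EIC + S60 and −2.54 in EIC + S120. Col4a3 had −0.58 in EIC, −0.47 in EIC + S60 and −0.63 in EIC + S120, and Itgb6 had −0.98 in EIC, −0.72 in EIC + S60 and −1.08 in EIC + S120. Of the metabolic genes, Nat8f5 had 1.36 in EIC, 1.18 in EIC + S60 and 1.94 in EIC + S120, above Control throughout. Mthfd1l was at 1.14 in EIC, 0.99 in EIC + S60 and 1.17 in EIC + S120. Adgre1 had 1.73 in EIC, 1.27 in EIC + S60 and 0.94 in EIC + S120, and C1qb had 1.49 in EIC, 0.58 in EIC + S60 and 0.53 in EIC + S120. Iigp1 was at 2.04 in EIC, 0.65 in EIC + S60 and 0.58 in EIC + S120. Tgtp2 was at 2.02 in EIC, 0.39 in EIC + S60 and 0.68 in EIC + S120, so that Adgre1, C1qb, Iigp1 and Tgtp2 had lower LFCs in both sparsentan groups than in EIC. Other immune genes had other orders, with 0.51 in EIC, 1.14 in EIC + S60 and 0.52 in EIC + S120 for C3. Mbl2 had 0.38 in EIC, 1.16 in EIC + S60 and 1.12 in EIC + S120, and Smpdl3b had 1.01 in EIC, 1.21 in EIC + S60 and 0.83 in EIC + S120.

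Differences of EIC + S60 from EIC itself were tested in that model, and edgeR called 0 of 13990 genes (846 at an unadjusted p under 0.05, 5 by DESeq2, 1 when only those 10 libraries were used). Ren1 had the largest difference among the genes named here and did not pass (LFC 1.81, SE 0.31, adjusted p = 0.187), nor did Akr1b7 (LFC 1.11, SE 0.23, adjusted p = 0.37). Tgtp2 (LFC −1.63, SE 0.34, adjusted p = 0.586), Iigp1 (LFC −1.39, SE 0.36, adjusted p = 0.734) and C1qb (LFC −0.90, SE 0.25, adjusted p = 0.734) had negative LFCs against EIC that did not pass either. In this contrast Cry1 (LFC −0.32, SE 0.18, adjusted p = 0.829), Dbp (LFC 0.03, SE 0.11, adjusted p = 0.98) and Arntl (LFC 0.43, SE 0.34, adjusted p = 0.913) did not pass. A p above the threshold does not show that EIC + S60 and EIC mice were alike. EIC vs. Control gave 416 DE genes of the 13990 (2.97%) in this model, against 180 for EIC + S60 vs. Control. When only the 10 libraries of each comparison were used, the order was reversed, with 143 for EIC and 172 for EIC + S60.

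Between the doses, 9 of the 13990 genes (0.0643%) differed by edgeR, and 80 did by DESeq2. Cry1 was higher in EIC + S120 than in EIC + S60 (LFC 1.13, SE 0.18, adjusted p = 0.00789), while Dbp was lower (LFC −0.72, SE 0.11, adjusted p = 0.00789). Gldc was also higher at 120 mg/kg (LFC 0.74, SE 0.13, adjusted p = 0.035). Ren1 did not pass (LFC 0.06, SE 0.31, adjusted p = 0.983). Fos (LFC 2.35, SE 0.52, adjusted p = 0.116) and Egr1 (LFC 2.19, SE 0.50, adjusted p = 0.145) had higher values in EIC + S120 that did not pass. The count was 54 without EIC + S120 77, 5 without EIC + S60 71 or 74 or EIC + S120 80, and 2 without EIC + S120 78 or 81.

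**Figure D5:**
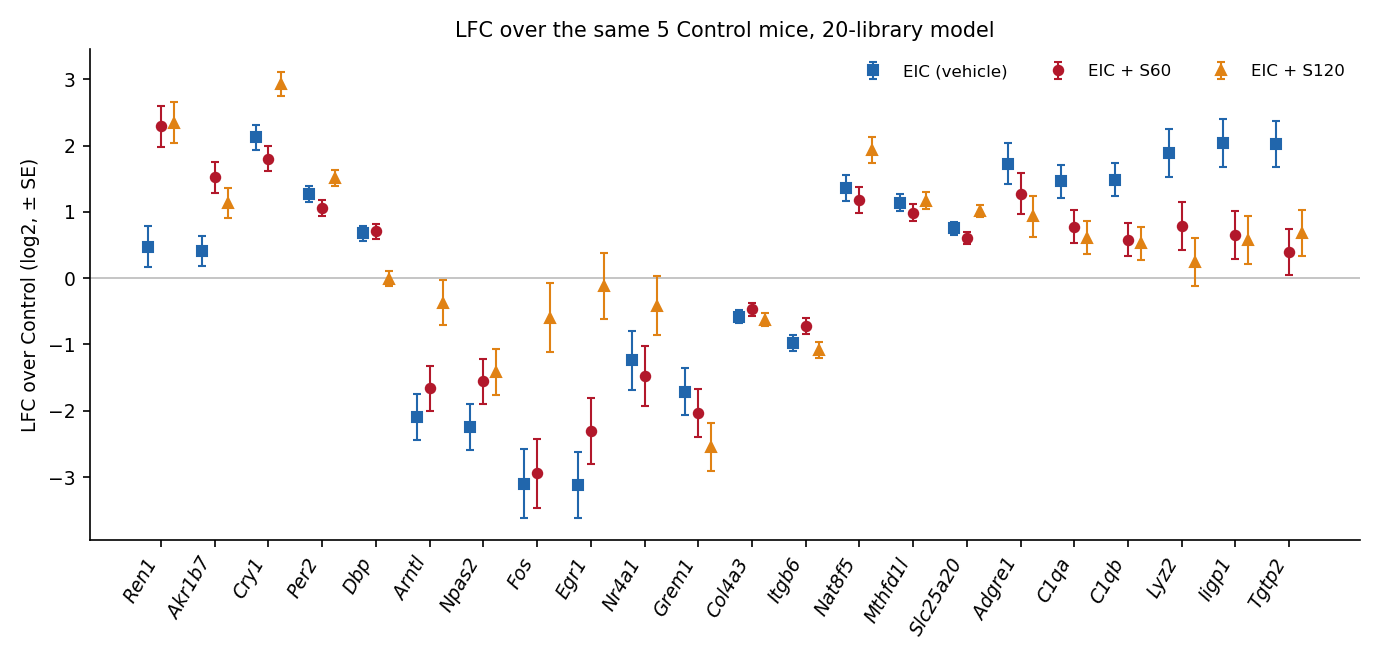
LFC over Control (vertical axis, log2, ± SE) of 22 genes in EIC (blue squares), EIC + S60 (red circles) and EIC + S120 (orange triangles), from the model of all 20 libraries with the same 5 Control mice. Ren1 is at 0.48 in EIC and at 2.29 and 2.35 in the sparsentan groups, all 3 groups are below 0 for Grem1, Col4a3 and Itgb6, and Iigp1 and Tgtp2 stand at 2.04 and 2.02 in EIC.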

How the data were processed

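Kidneys were sequenced as poly(A)-selected RNA, 1 library per mouse. Per the labels and the submitters' processing notes, the authors' pipeline was Trimmomatic 0.36, STAR 2.5.2b on GRCm38 and featureCounts (Subread 1.5.2), and raw counts were deposited. The annotation and strand setting were not given in the sources used here. Groups came from the labels, doses and days from the paper's methods. The filter required 10 counts or more in 5 or more of the 10 libraries, and library sizes were scaled by TMM. The robust quasi-likelihood test of edgeR 4.0.16 (R 4.3.3) was applied two-sided, with Benjamini-Hochberg adjustment over the 13619 genes tested. SEs came from limma 3.58.1 (limma-trend, prior count 2). Values vs. EIC and between doses came from all 20 libraries (13990 genes). P-values measure the spread between single mice. Depth limits the precision of genes of low CPM. Steps were tested on simulated data. Alternatives were RLE scaling, DESeq2 1.42.0, limma-voom, other count filters, a fit that was not robust, thinned counts, 3 deep libraries left out, each library left out, and 4 mice against 4. Gene names were matched to mouse symbols without regard to case. The rule names the 12 DE genes with the largest LFC each way among those with a mean of at least 1 CPM, the 6 with the smallest p each way, genes the study names, up to 5 DE members of each list, and members of lists no longer than 14. Genes outside it are said to be chosen after their values were seen. The comparison, lists and rule were chosen with earlier results of these data known. Some DE genes are not reported here.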

Additional observations from a re-analysis of the deposited data

Results flagged for a closer look

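Single mice stood apart from the other 4 of their group in 12 of 226 groups examined (5.31%), where chance gives about 1 in 20. In EIC + S60 these were mouse 72 for Edn3 (14.1 CPM) and Lyz1 (1.65 CPM), mouse 74 for Abcd3 (536.9 CPM), and mouse 75 for Trpm6 (3.42 CPM, the lowest), Egr1 (28.7 CPM) and its total of 27948916 counts. In Control they were mouse 653 for Ces1g (0.508 CPM, the lowest) and Nfil3 (9.02 CPM), and mouse 655 for Per2 (11.4 CPM, the lowest), Edn1 (0.628 CPM, the lowest), Nlrc5 (0.0785 CPM, the lowest) and Junb (53.1 CPM). Control 655 holds 4 of the 12 and EIC + S60 75 holds 3.

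Some genes named above differed between the doses by edgeR in the model of all 20 libraries. The LFC of EIC + S120 over EIC + S60 was 1.13 for Cry1, −0.72 for Dbp and 0.74 for Gldc.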

How the results depend on the processing

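The number of DE genes in EIC + S60 vs. Control was 435 by DESeq2 and 65 without the 3 libraries of greatest depth, against 172 by edgeR, and 70 to 204 with a library left out. It lay between 155 and 180 under RLE scaling, limma-voom, both other count filters, a fit that was not robust, all 20 libraries, thinned counts and 4 mice against 4. Of the 72 DE genes among the 112 tested genes considered for naming, all 72 kept their sign in every fit with a library left out, 33 were called in all 10, 27 in 5 or fewer, 51 with 4 mice against 4, 57 with all 20 libraries and 72 by DESeq2. DESeq2 called 10 more of the 112. EIC vs. Control had 704 DE genes by DESeq2, 143 with only its 10 libraries, and 233 to 465 with a library left out. EIC + S60 vs. EIC had 5 by DESeq2, 1 with only its 10 libraries, and 0 to 0 with a library left out. EIC + S120 vs. EIC + S60 had 80 by DESeq2 and 2 to 54 with a library left out. Agtr1a changed sign around 0, with LFCs of 0.00034 under RLE scaling, 0.0015 by DESeq2, 0.0300 in thinned counts, 0.0688 with 4 mice against 4 and −0.11 to 0.0647 with a library left out, and Tgtp1 ranged over −0.0200 to 0.43 with a library left out. The cause of these differences was not tested. No paired analysis was possible because the mouse numbers differ between all groups.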

Other observations

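Red blood cell transcripts were higher in EIC + S60 on average without passing. Of 5 red blood cell markers (globin genes and Alas2 of heme synthesis) 0 passed by edgeR, all 5 had an unadjusted p under 0.05, DESeq2 called 3 and the median LFC was 0.66. They summed to 491 to 925 CPM in EIC + S60 and 383 to 608 CPM in Control.

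Several groups that the report does not describe held no DE gene by edgeR. Among 19 cholesterol biosynthesis genes 3 had an unadjusted p under 0.05 and DESeq2 called 0 (median LFC −0.08). Among 19 heat shock proteins and chaperones the numbers were 5 and 0 (median 0.02), among 20 MAP kinase genes 3 and 0 (median −0.01), and among 14 cytochrome P450 genes 0 and 0 (median 0.20). Of 11 natriuretic peptide receptor, prostaglandin and nitric oxide genes 5 had an unadjusted p under 0.05 and DESeq2 called 0, with a median LFC of −0.23. Of 15 cytokine, chemokine and NF-kappaB genes 1 had an unadjusted p under 0.05, DESeq2 called 1 and 14 had a positive LFC (median 0.08).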
